A study of Mus musculus with 9 samples.

Results

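Serpins and other protease inhibitors were followed in RNA-seq of sorted mouse splenic B cells. The 8 transcripts described here are Serpina3g, Serpina3f, Serpinb1a, Serpinb6a, Serpinb9, Slpi, Cst3 and Cstb, taken by gene symbol from 24346 listed genes, and each had a row in all 9 libraries. All mice were wild-type C57BL6. Follicular (FO) B cells, gated as B220hiCD43-CD23+CD21lo, came from mice 8 weeks old (young) and 50 weeks old (aged). Age-associated B cells (ABCs), gated as B220hiCD43-CD23-CD21loCD11b+CD11c+, came from mice 50 weeks old, so that age and cell type cannot be told apart between ABCs and young FO B cells. Each group had 3 libraries, described in the study as separate mice. Levels are FPKM, read numbers divided by transcript length and by sequencing depth, which can be compared between genes. The members were chosen by their FPKM in ABCs against FO B cells, so that contrast is described without a test, whereas aged against young FO B cells was tested.

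Serpins act as bait for proteases: the protease cuts an exposed loop, the serpin snaps into a new shape and the enzyme is trapped in a covalent complex. Clade A serpins are mostly secreted, although Serpina3g (also called Spi2A) stays inside the cell and can block lysosomal cysteine cathepsins. Clade B serpins work in the cytosol and nucleus, where Serpinb1a blocks neutrophil serine proteases, Serpinb6a blocks cathepsin G and Serpinb9 blocks granzyme B. Slpi is a small secreted inhibitor of neutrophil elastase with WAP domains. Cystatins are reversible inhibitors of cysteine cathepsins, with Cst3 (cystatin C) secreted and Cstb (cystatin B) cytosolic.

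Serpina3f and Serpina3g are neighbours that both rose with age, and their promoters are shown because of this. In GENCODE M21 on GRCm38, the assembly named mm10, Serpina3f lies at chr12:104214544-104221129 and Serpina3g at chr12:104236245-104241939, both on the plus strand and 15115 bases apart. Their main transcripts were 88.6% identical over 1751 columns. Below are the 250 bases before a RefSeq start site of each gene (GRCm38.p6, plus strand), at chr12:104214294-104214543 for Serpina3f and chr12:104235897-104236146 for Serpina3g. Capitals mark matches to TTCNNNGAA, a STAT-type motif, in both, and to the NF-kB motif in Serpina3g.
Serpina3f: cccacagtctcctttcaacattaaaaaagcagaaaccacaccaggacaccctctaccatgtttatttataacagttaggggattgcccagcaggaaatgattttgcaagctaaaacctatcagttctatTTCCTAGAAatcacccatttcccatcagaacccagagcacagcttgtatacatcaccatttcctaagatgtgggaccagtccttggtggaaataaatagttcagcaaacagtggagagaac
Serpina3g: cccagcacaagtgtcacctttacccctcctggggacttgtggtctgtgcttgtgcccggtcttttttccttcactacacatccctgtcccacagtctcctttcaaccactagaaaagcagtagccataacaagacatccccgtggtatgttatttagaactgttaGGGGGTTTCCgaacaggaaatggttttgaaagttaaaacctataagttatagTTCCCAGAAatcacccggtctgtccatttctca

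The STAT-type letters read TTCCTAGAA from 121 to 113 bases before the start site of Serpina3f (positions -210 to -202 from a second RefSeq start site) and TTCCCAGAA from 33 to 25 bases before that of Serpina3g. The NF-kB match of Serpina3g read GGGGGTTTCC and lay 85 to 76 bases before the start site. Matches were sought on both strands, and the marked matches do not overlap. Of 32851 mouse promoter windows of this length, 7.02% held TTCNNNGAA and 5.93% held the NF-kB motif. With 50 bases past the start site added, the Serpina3f and Serpina3g windows aligned over 214 columns with 79% identity. RefSeq windows were found for 6 of the 8 genes, not for Serpinb1a and Cstb. In 1 of its 2 windows Serpinb6a also held TTCNNNGAA, which there overlapped a match to an interferon-response motif, GAAA repeated after any 2 bases, while the other window held no match. This motif was found in Serpinb9 too and in 2.98% of all windows, whereas TCACACC, a T-box core present in 3.33%, was found in none of the 6.

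The other genes are all protein-coding. The clade B members lie on chromosome 13, with Serpinb1a at chr13:32842092-32851185 (minus strand), Serpinb9 at chr13:33003250-33017957 (plus) and Serpinb6a at chr13:33917918-34002794 (minus). Slpi at chr2:164354070-164389095 and Cst3 at chr2:148871722-148875692 are on the minus strand, and Cstb at chr10:78425669-78427622 is on the plus strand. Sequence shared with other genes makes some values less certain. Of the windows of 1 read length along the main transcript, 4.46% in Serpina3g and 3.49% in Serpina3f recur in each other or in further Serpina3 genes, and 12.1% in Serpinb6a recur in 1110046J04Rik. Serpinb6a also overlaps Nqo2 and Ripk1. The other 5 members shared no such window.

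The libraries held about 7530000 to 9160000 mapped reads each, a total estimated from the FPKM value of 1 read. The ABC genes Tbx21, Itgax and Itgam summed to 278 to 292 FPKM in ABCs and 2.55 to 9.34 in FO B cells, and the FO B genes Fcer2a and Cr2 to 1.21 to 15.4 in ABCs and 844 to 1194 in FO B cells. In bulk samples, fewer cells of a type and less RNA per cell cannot be told apart.

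**Figure D1:**
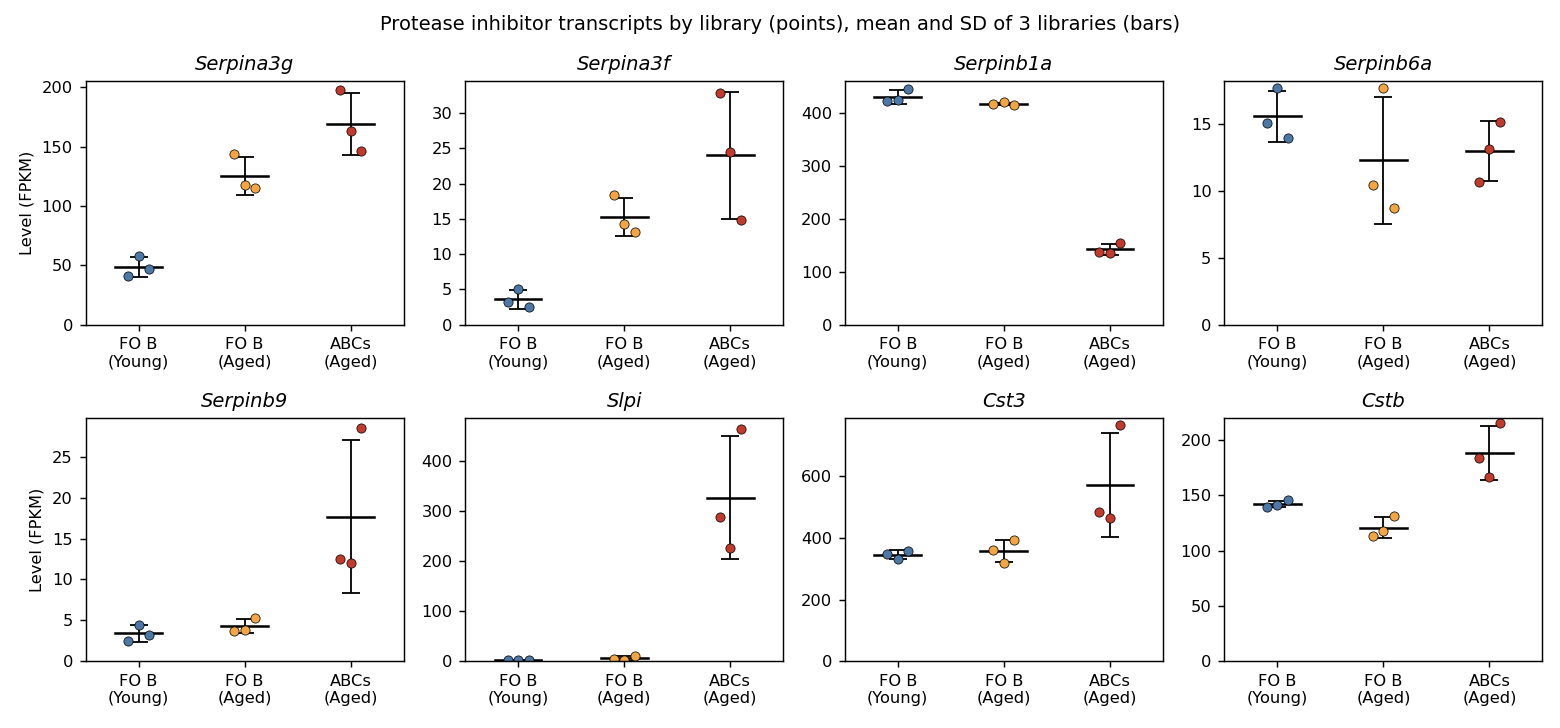
Level of each protease inhibitor transcript (FPKM, linear axis from 0, a scale of its own per gene) in FO B (Young), FO B (Aged) and ABCs (Aged). Points are libraries, the long bars are means and the error bars are SDs of 3 libraries. Serpina3g and Serpina3f step up from young to aged FO B cells, Slpi is near 0 in FO B cells and 227 to 462 in ABCs, and Serpinb1a is lower in ABCs.

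The first question was which inhibitors differ with age within FO B cells. Serpina3g and Serpina3f rose, and no other member passed the test. Serpina3g was at 41.0, 57.7 and 46.9 FPKM in the libraries of young FO B cells and at 144, 118 and 115 FPKM in those of aged FO B cells. The lowest aged library thus stood well above the highest young library. The mean went from 48.6 ± 8.44 to 126 ± 16 FPKM (SD, n = 3 each), a ratio of 2.59. On the log2(FPKM + 1) scale, which understates changes of low genes, the rise was 1.36 (SE 0.13, limma FDR 0.00472).

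Serpina3f was a far less abundant transcript with a larger step. It was at 3.25, 5.01 and 2.47 FPKM in young and at 18.3, 14.3 and 13.1 FPKM in aged FO B cells, again without overlap. The ratio of means was 4.26, and the log2 rise was 1.85 (SE 0.206, limma FDR 0.00872). Without a filter on low values, with 18096 in place of 10122 genes tested, the log2 rise stayed at 1.85 and the FDR was 0.0793, so that the call was lost, while the FDR of Serpina3g was 0.0445.

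These were among the leading age differences of FO B cells. Higher in aged cells at an FDR under 0.05 were 2 of the 8 members, set against 0.346% of all 10122 genes tested, and limma called 0 members lower, beside 0.119% of all genes, with Cstb alone lower at an unadjusted p under 0.05. The members were chosen on values that included the FO B libraries, so that this count is not independent of the choice. By fold change, Serpina3f was 4th and Serpina3g 10th of the 35 genes called higher. Both rises kept their direction and call without any single library, with log2 values of 1.67 to 2.07 for Serpina3f and 1.25 to 1.49 for Serpina3g. The ABC marker sum was 2.55 to 3.48 FPKM in young and 5.94 to 9.34 FPKM in aged FO B cells, mostly from Tbx21 (means 2.58 and 6.98 FPKM), which missed the threshold (log2 difference 1.14, limma FDR 0.0836), with Itgax and Itgam under the filter. The FO B marker Fcer2a fell from 967, 1036 and 948 FPKM to 697, 716 and 728 FPKM (log2 difference -0.46, limma FDR 0.0109), while Cr2 gave 0.01. The part of these markers in the Serpina3 rise was not tested. Slpi, the member with the widest difference between ABCs and FO B cells, was at 3.20 to 11.0 FPKM in aged FO B cells and at 227 to 462 FPKM in ABCs.

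Slpi, the elastase inhibitor, missed the threshold. It was at 2.89, 1.89 and 2.39 FPKM in young and at 3.89, 3.20 and 11.0 FPKM in aged FO B cells, from 17, 11 and 14 reads and 21, 21 and 65 reads. The groups did not overlap, but replicate 3 of the aged cells was 3.44 times the lowest. The log2 difference was 0.90 (95% confidence interval 0.08 to 1.72, limma FDR 0.339) and 0.43 without that library. The same library had the highest sum of 11 neutrophil markers, 28.8 FPKM against 2.93 to 12.1 FPKM in the other 8, with S100a8 at 15.2, S100a9 at 6.16 and Retnlg at 2.57 FPKM, each the highest of all 9 libraries. Mpo, Ltf and Camp were at 0 there and at 0 to 0.591 FPKM in the others. The part of neutrophil RNA in the Slpi value was not tested.

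The other 5 members gave differences that the test did not call. Cstb was at 140, 141 and 145 FPKM in young and 113, 117 and 131 FPKM in aged FO B cells, a log2 difference of -0.23 (95% interval -0.38 to -0.09, limma FDR 0.18). Serpinb1a was nearly level at 422, 424 and 445 against 416, 420 and 415 FPKM, with a log2 difference of -0.04 (interval -0.15 to 0.06). Both were lower in every aged library than in any young one. Cst3 had a log2 difference of 0.04 (interval -0.14 to 0.22), Serpinb9 of 0.28 (interval -0.16 to 0.71) and Serpinb6a of -0.37 (interval -0.87 to 0.13), all with overlapping groups and limma FDRs of 0.531 to 0.874. Counting groups without overlap, 3 members were higher and 2 lower in aged cells, beside 9.64% and 8.96% of all genes tested.

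**Figure D2:**
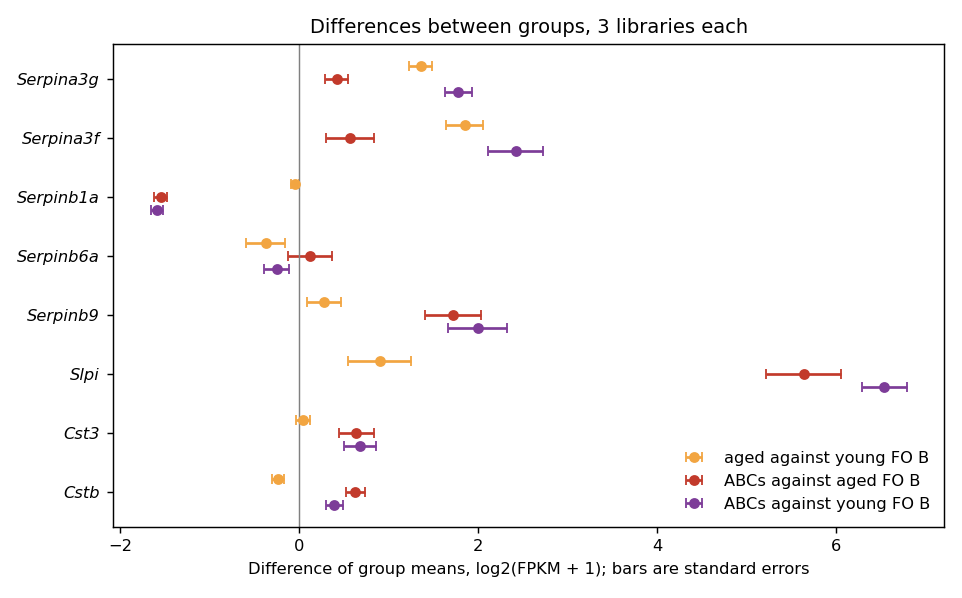
Differences of group means on the log2(FPKM + 1) scale (horizontal axis) for the 8 transcripts, with 3 libraries in each group. Points are the fitted differences and bars their standard errors, coloured by comparison. Serpina3g and Serpina3f give 1.36 and 1.85 with age in FO B cells and 0.42 and 0.57 for ABCs against aged FO B cells, and Slpi, Serpinb9 and Serpinb1a give 5.64, 1.72 and -1.55 in the latter comparison.

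The second question was how ABCs differ from FO B cells of mice of the same age. Slpi stood far above the other members. It was at 289, 227 and 462 FPKM in ABCs, from 1570, 1363 and 2534 reads, against the 3.20 to 11.0 FPKM of aged FO B cells. The ratio of means was 53.9, with a log2 difference of 5.64 (SE 0.421). In ABC libraries its level exceeded 95.6% to 97.8% of the genes at 1 FPKM or more in the same library. In FO B libraries it exceeded 7.16% to 40.3% of such genes. Neutrophils, a known source of Slpi, had markers that summed in ABCs to 2.93 to 5.04 FPKM. S100a8 was at 0 in all 3 ABC libraries and S100a9 at 0 to 0.359 FPKM. Other marker sums were higher in ABCs than in FO B cells of both ages. The macrophage and monocyte sum was 203 to 243 against 12 to 30.6 FPKM, and the plasma cell sum 976 to 1275 against 440 to 471 FPKM. In ABCs most of the former came from Adgre1 and most of the latter from Mzb1, while the plasma cell gene Irf4 overlapped between the groups. The B-1 cell sum was 134 to 157 against 2.35 to 4.54 FPKM. It came mostly from Zbtb32, and Cd5 was at 0.656, 2.43 and 2.86 FPKM in ABCs. T and NK cell sums were higher too, while dendritic cell and B lineage sums overlapped. The part of such cells in the Slpi value was not tested.

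Serpinb9, the granzyme B inhibitor, was the other member with a wide gap upward. It was at 3.74, 3.87 and 5.29 FPKM in aged FO B cells and at 12.5, 12.1 and 28.4 FPKM in ABCs. The ratio of means was 4.11 and the log2 difference 1.72 (SE 0.312). Replicate 3 of the ABCs held 2.36 times the level of the lowest ABC library, and without it the log2 difference was 1.34.

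The cystatins were modestly higher in ABCs. Cst3 was at 361, 319 and 392 FPKM in aged FO B cells and at 484, 464 and 767 FPKM in ABCs, a log2 difference of 0.64 (SE 0.192). Cstb was at 113, 117 and 131 FPKM against 184, 166 and 215 FPKM, a log2 difference of 0.63 (SE 0.107). Neither pair of groups overlapped. Dendritic cells carry much Cst3, and their markers Xcr1, Clec9a and Clec10a were at 0 to 0.37 FPKM in every library, while Batf3 was at 0 in aged FO B cells and at 3.42, 1.99 and 9.46 FPKM in ABCs, and Zbtb46 at 0.666, 1.46 and 0.437 FPKM against 3.34, 3.27 and 2.90 FPKM. In replicate 3 of the ABCs, which had the highest Cst3, Batf3 and Xcr1 (0.370 FPKM) were at their highest in ABCs. Zbtb46, Siglech (0.663 FPKM), Flt3 (0.105 FPKM), Cd209a (0 FPKM) and Clec9a (0 FPKM) were at their lowest there. The part of dendritic cell RNA in the Cst3 value was not tested.

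The means of the Serpina3 pair were also higher in ABCs than in aged FO B cells, with overlapping groups for Serpina3f. Serpina3g was at 197, 163 and 147 FPKM in ABCs, a log2 difference of 0.42 (SE 0.131) without overlap. Serpina3f was at 32.8, 24.4 and 14.8 FPKM, a log2 difference of 0.57 (SE 0.267), with its lowest ABC library inside the aged FO B range. The age and cell type differences share the aged FO B libraries and were not tested against each other. The ratio of Serpina3g to Serpina3f was 14.4 ± 4.04 in young FO B cells, 8.3 ± 0.466 in aged FO B cells and 7.52 ± 2.06 in ABCs (SD, n = 3 each).

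Serpinb1a ran the other way. It was at 416, 420 and 415 FPKM in aged FO B cells and at 137, 136 and 154 FPKM in ABCs, a ratio of aged FO B cells to ABCs of 2.93 and a log2 difference of -1.55 (SE 0.069). It had the smallest spread of the members within aged FO B cells, with a coefficient of variation of 0.618%. Serpinb6a, the cathepsin G inhibitor, differed little, at 10.5, 17.7 and 8.70 FPKM against 10.7, 13.1 and 15.2 FPKM, with overlapping groups and a log2 difference of 0.12 (SE 0.247). Across the members, 5 were higher and 1 was lower in ABCs without overlap, beside 26.3% of all genes in each direction. The median log2 difference was 0.60 over the members and -0.01 over all 10412 genes.

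Against young FO B cells, which share the ABC libraries with the contrast above, the log2 differences were 6.54 for Slpi, 2.42 for Serpina3f, 2.0 for Serpinb9, 1.78 for Serpina3g, 0.68 for Cst3, 0.40 for Cstb, -0.25 for Serpinb6a and -1.59 for Serpinb1a. Here 6 members were higher and 1 lower without overlap, beside 27.7% and 27.6% of all genes tested, and only Serpinb6a overlapped.

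Replicate 3 of the ABCs lay at an extreme for every member. It had the highest level of 6 members (Slpi, Cst3, Cstb, Serpinb9, Serpinb6a and Serpinb1a) and the lowest of 2 (Serpina3g and Serpina3f), while it was the highest ABC library for 39.0% and the lowest for 36.7% of all genes tested. Its FO B marker sum was 1.21 FPKM against 9.08 and 15.4 FPKM in the other ABC libraries. Its B lineage marker sum was 7688 FPKM against 9424 and 9897 FPKM there, and 8694 to 9138 FPKM in FO B cells. Its correlations across genes with the other ABC libraries were 0.964 and 0.958, and those gave 0.980 with each other. Without it, the log2 difference between ABCs and aged FO B cells was 5.35 for Slpi, 0.41 for Cst3 and 0.87 for Serpina3f. Serpina3f gave 0.32 without replicate 1 of the ABCs.

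The make-up of the summed inhibitor level shifted with cell type. Serpinb1a led in FO B cells of both ages, with 38% to 43.7% of the summed FPKM of the 8 transcripts, and gave 8.56% to 11.3% in ABCs. Cst3 led in ABCs, with 35.9% to 42.5%. Slpi went from 0.192% to 1.01% of the sum in FO B cells to 18.8% to 25.6% in ABCs. Serpina3g gave 4.2% to 5.87% in young FO B cells, 10.5% to 13.5% in aged FO B cells and 8.13% to 14.7% in ABCs. The sum itself was 976 to 1091 FPKM in FO B cells and 1205 to 1803 FPKM in ABCs.

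**Figure D3:**
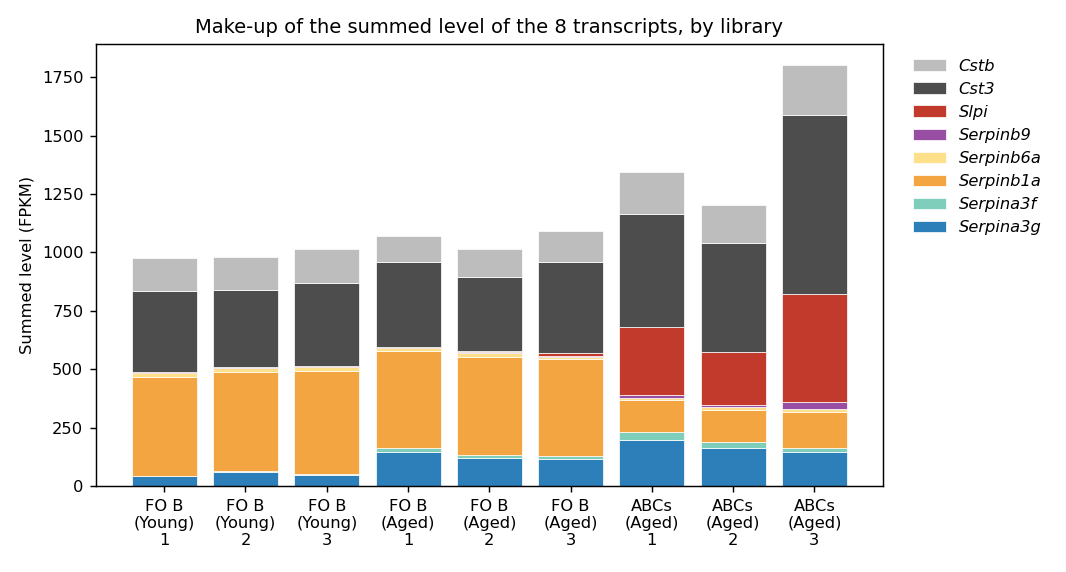
Summed level (FPKM, linear axis from 0) of the 8 transcripts in each of the 9 libraries, stacked by gene. The Serpinb1a share is 38% to 43.7% in FO B libraries and 8.56% to 11.3% in ABC libraries, where Slpi takes 18.8% to 25.6%.

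The order of the levels per length differed between the groups in the same way. In young FO B cells it ran Serpinb1a (430 ± 12.5 FPKM), Cst3 (346 ± 13.9), Cstb (142 ± 2.89), Serpina3g (48.6 ± 8.44), Serpinb6a (15.6 ± 1.94), Serpina3f (3.58 ± 1.3), Serpinb9 (3.41 ± 0.986) and Slpi (2.39 ± 0.499), with the last 3 overlapping their neighbours. In aged FO B cells Serpina3g (126 ± 16) drew level with Cstb (121 ± 9.51), the libraries overlapping, and Serpina3f, Serpinb6a, Slpi and Serpinb9 formed a run of overlapping neighbours. In ABCs the order was Cst3 (571 ± 169.6), Slpi (326 ± 122), Cstb (188 ± 24.5), Serpina3g (169 ± 26), Serpinb1a (143 ± 10.3), Serpina3f (24 ± 8.98), Serpinb9 (17.7 ± 9.32) and Serpinb6a (13 ± 2.26). Cstb, Serpina3g and Serpinb1a overlapped their neighbours in that order, as did the last 3, whereas Cst3 and Slpi did not overlap (SD, n = 3 throughout).

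The rest of the inhibitor families was mostly silent. Of 131 other inhibitor genes, 48 were at 0 FPKM in all 9 libraries and only 11 averaged 1 FPKM or more in ABCs and aged FO B cells. Serpina3f and Serpina3g were the sole clade A serpins above the filter, and the flanking Serpina3c, Serpina3h, Serpina3i and Serpina3n had group means of 0 to 0.0763 FPKM. Of the 11, 8 averaged 1 FPKM or more in both groups. Among the 8, limma called 1 higher in ABCs (Serpinb6b), beside 17.5% of all such genes, and 1 lower (Spint2), beside 16.3%. Over all 11 the counts were 3 higher, beside 19.4% of all genes tested, and 1 lower, beside 16.5%, but Timp2 and Cst7 had passed the filter through their ABC levels alone, so that the count of 3 supports nothing.

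Timp2, an inhibitor of matrix metalloproteinases, was at 0.144, 0.385 and 0.428 FPKM in aged FO B cells and at 6.0, 5.56 and 11.3 FPKM in ABCs, a log2 difference of 2.65 with a limma FDR of 0.00178 in the fit with no filter. Cst7 (cystatin F), which restrains cathepsins within endolysosomes, went from 0, 0 and 0.145 FPKM to 4.57, 2.85 and 1.25 FPKM, a log2 difference of 1.80 with a limma FDR of 0.0117 in the same fit. Both were near 0 in FO B cells, so that the size depends on the pseudocount, with 4.20 for Timp2 and 4.30 for Cst7 at 0.1 FPKM in place of 1. Serpinb6b, a clade B neighbour of Serpinb9, went from 1.19, 1.78 and 2.12 FPKM to 6.36, 10.5 and 13.6 FPKM (log2 difference 2.01, SE 0.263, limma FDR 0.00136). Spint2, a membrane inhibitor of trypsin-like proteases, went the opposite way, from 49.8, 55.7 and 60.0 FPKM to 17.5, 11.8 and 10.1 FPKM (log2 difference -2.02, SE 0.183, limma FDR 0.000296).

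Against young FO B cells, 4 of 11 were called higher, beside 21.6% of all genes, and 1 lower, beside 19.1%, with Wfdc17 as the addition. Without Timp2, Cst7 and Wfdc18, which averaged less than 1 FPKM in 1 of the groups, 2 of 8 were higher, beside 19.5% of such genes, and 1 lower, beside 19.0%. Wfdc17, a WAP-domain gene like Slpi, was the single other inhibitor called with age, as 1 of 10 tested, beside 0.346% of all genes called higher. It was at 49.9, 56.7 and 51.1 FPKM in young FO B cells, 110, 84.1 and 127 FPKM in aged FO B cells, and 79.3, 111 and 143 FPKM in ABCs. The log2 difference with age was 0.99 (limma FDR 0.0224), and the call was lost without any of the 3 young libraries or without replicate 1 of the aged cells, with FDRs of 0.0688 to 0.1. Below the filter lay Serpinb7, singled out after its values were seen, with 21, 28 and 38 reads in aged FO B cells and 1, 1 and 0 reads in ABCs.

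**Figure D4:**
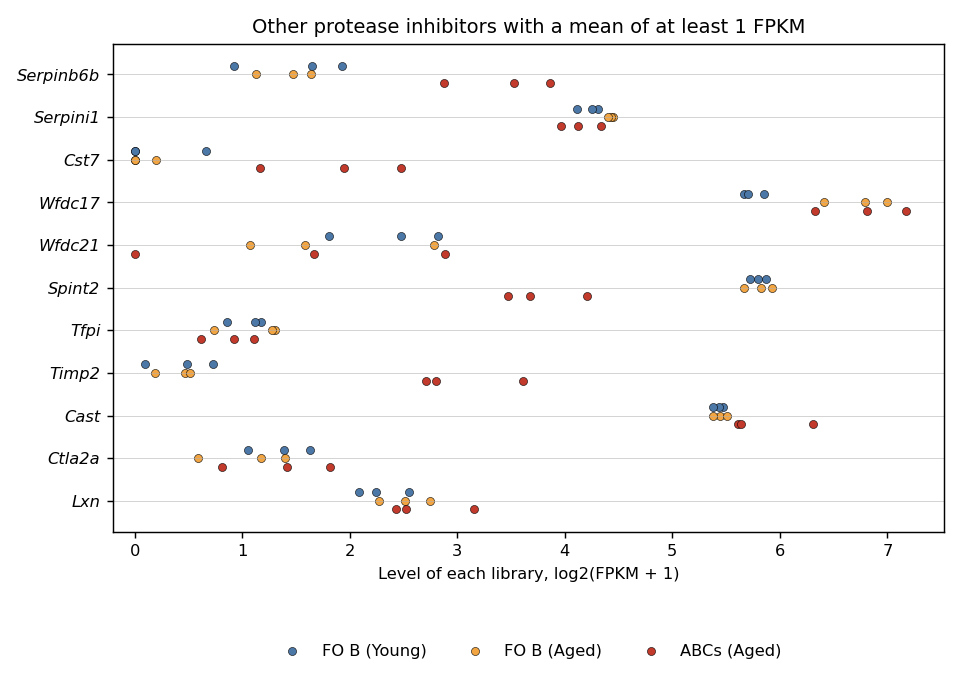
Levels of the 11 other protease inhibitors that averaged 1 FPKM or more in the libraries of ABCs and aged FO B cells, as log2(FPKM + 1). Each point is a library, coloured by group. Serpinb6b, Cst7 and Timp2 lie higher and Spint2 lower in ABCs (log2 differences 2.01, 1.80, 2.65 and -2.02 against aged FO B cells), and Wfdc17 is higher in both aged groups than in young FO B cells.

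The proteases that these inhibitors can meet were set beside them. Of 28 listed proteases, 11 were tested between ABCs and aged FO B cells, 10 were higher in ABCs, beside 19.4% of all genes, and 0 were lower. The lists were chosen with earlier results of these data known, so that these counts are descriptive only. Cathepsin transcripts made up most of these, with log2 differences of 1.44 for Ctsb, 1.0 for Ctsh, 0.91 for Ctsl and Ctsz and 0.81 for Ctsc, while Ctss gave -0.05 (limma FDR 0.591). The inflammatory caspases Casp4 (0.77) and Casp1 (0.49) were higher too. The serine protease Prss57 passed the filter through its ABC level alone (1.92, with a limma FDR of 0.00298 in the fit with no filter, or 2.92 with a pseudocount of 0.1), and without it 9 of 10 were higher, beside 17.5% of the genes that averaged 1 FPKM or more in both groups. With no filter on low values, 11 of 21 proteases were called higher in ABCs and 1 lower, beside 2044 and 1444 of all 18877 genes. Between aged and young FO B cells limma called 0 of 10, with 4 at an unadjusted p under 0.05, beside 12.8% of all genes tested. Elane (neutrophil elastase), Ctsg (cathepsin G) and Gzmb (granzyme B), the classical targets of Slpi, Serpinb6a and Serpinb9, were each listed at 0 FPKM in all 9 libraries.

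By profile over the 9 libraries, the gene nearest to Serpina3g of those that averaged 1 FPKM or more was Gm6377 (mean absolute difference 0.204 on the centred log2(FPKM + 1) scale), followed by Mageh1 (0.244) and Nr3c2 (0.251), the mineralocorticoid receptor. Nearest to Serpina3f were Clps (0.268), Serpina3g itself (0.281) and Nr3c2 (0.380), so that the pair shared a neighbour. Slpi was nearest to Fgl2 (0.330), a fibrinogen-like protein, Zbtb32 (0.404), a transcriptional repressor, and Apoc2 (0.407). Serpinb1a lay close to Lmo2 (0.066), Rasa4 (0.068) and Fam134b (0.068), and Serpinb9 to Hspa12a (0.136), Camkmt (0.141) and Prc1 (0.178). Cst3 lay close to Top1 (0.040), Lman2 (0.072) and Zfp768 (0.078), Cstb to Zbtb8os (0.036), Naglu (0.052) and Slc35c2 (0.057), and Serpinb6a to Gtpbp8 (0.080), Zfp865 (0.129) and 4930577N17Rik (0.129). These likenesses span 9 libraries of 3 groups and describe the profiles only.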

How the data were processed

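The authors sorted the cells, prepared cDNA (SMART-Seq HT) and Nextera libraries, which carry no strand, and sequenced them single-end. The deposited values are FPKM, 1 file per library, which the authors calculated after mapping to mm10. The submitters' processing notes name TopHat2 2.1.1, Bowtie2 2.2.8, SAMtools 0.1.18 and Cuffdiff 2.2.1, whereas the paper gives other releases and Cufflinks. The gene annotation is not given in the sources used here.

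The members and lists were chosen with earlier results of these data known. For each pair of groups, log2(FPKM + 1) of genes averaging 1 FPKM or more in the 6 libraries was analysed in limma 3.58.1 under R 4.3.3, by lmFit and eBayes with a trend and with no block. P-values were adjusted by Benjamini-Hochberg over all genes, and genes were called at an FDR under 0.05. P-values measure the spread between these libraries. A count model was not the main test because FPKM are not counts.

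Reads were recovered where the FPKM of a gene were whole multiples (within 0.02) of the value of 1 read. Positions and shared windows came from GENCODE M21 and promoters from RefSeq. Named genes were the 8 members, up to 5 of each inhibitor or protease list with the largest log2 difference among those called between ABCs and aged FO B cells, all called with age, and the 3 nearest profiles of each member. Other inhibitors and proteases named (such as Ctss, Elane, Ctsg, Gzmb and further serpins) fall outside this rule and were chosen after their values were seen. Marker lists covered the B lineage and ABC, FO B, B-1, plasma, macrophage, neutrophil, dendritic, T and NK cells. Ly6g, asked for in the neutrophil list, was not matched to a row, and 1 gene is not reported here. Alternatives were a pseudocount of 0.1, no filter, a mean of at least 5 FPKM, TPM scaling, quantile normalization, all 9 libraries, the replicate number as a block, stricter thresholds, leaving out each library and, chosen after seeing the data, counting only genes that averaged 1 FPKM or more in both groups. Tables were handled in pandas 2.3.3 under Python 3.11.15, alignments were made with Biopython 1.88 and figures with matplotlib 3.10.9.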

Additional observations from a re-analysis of the deposited data

How the results depend on the processing

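The stricter thresholds were an FDR under 0.01 together with a log2 fold change beyond 2.3 in either direction. With age, 0 members were called in place of 2. Other inhibitors called fell from 4 to 1 of 11 between ABCs and aged FO B cells. They fell from 5 to 1 of 11 between ABCs and young FO B cells, and from 1 to 0 of 10 with age. The 1 left in both ABC comparisons was Timp2, which passed the filter through its ABC level alone, so that it supports nothing. Proteases fell from 10 to 0 of 11. Of all genes, 155 were higher and 45 lower of 10412 in ABCs against aged FO B cells. Against young FO B cells it was 180 and 50 of 10438, and with age 2 and 0 of 10122. With no filter on low values, 1 of 8 members was called with age. The counts of other inhibitors were 9 of 68, 11 of 81 and 0 of 70 in the 3 comparisons. In the same order, 2044, 2209 and 13 of all genes were higher and 1444, 1719 and 2 lower, with 18877, 19376 and 18096 tested. A mean of at least 5 FPKM, with fewer genes tested, gave 2 of 6 and 3 of 5 other inhibitors in ABCs against aged and young FO B cells. Of all genes, it called 1561 of 8057 and 1760 of 8062 higher, and 1414 and 1629 lower. Scaling to TPM gave 7 of 14 and 8 of 15 other inhibitors. Of all genes, it called 1891 of 10822 and 2105 of 10854 higher, and 1954 and 2352 lower. Counting only genes that averaged 1 FPKM or more in both groups, a setting chosen after seeing the data, gave 2 of 8 and 3 of 8. Of all such genes, 17.5% and 19.5% were higher and 16.3% and 19.0% lower. With all 9 libraries in the fit, 0 of 12 other inhibitors were called with age, beside 14 higher and 6 lower of all 10375 genes. Where the setting does not itself remove or add genes, the cause was not tested. Leaving out each library in turn gave 2 to 2 members with age, 5 to 5 and 5 to 6 other inhibitors in ABCs against aged and young FO B cells, 0 to 1 with age, and 10 to 10 proteases. Of all genes, these fits called 1496 to 1963 higher and 1054 to 1680 lower in ABCs against aged FO B cells. Against young FO B cells it was 1745 to 2212 and 1312 to 1951, and with age 16 to 48 and 2 to 27. Among other inhibitors in ABCs against aged FO B cells, the split of 3 higher and 1 lower became 2 and 3 without ABC replicate 1. It became 3 and 3 with all 9 libraries in the fit. No called difference reversed under the alternatives run, while 2 that were not called spanned 0 when libraries were left out, Cst3 with age (-0.03 to 0.12) and Serpinb6a between ABCs and aged FO B cells (-0.08 to 0.39). With the replicate number as a block, 2 members, 4, 5 and 1 other inhibitors and 10 proteases were called, as without it. The numbers were not taken to pair the libraries. Correlations of same-numbered deviations were 0.085, -0.019 and 0.108 between ABCs and aged FO B cells, beside -0.108 to 0.059 for different numbers. Between aged and young FO B cells they were -0.054, 0.138 and -0.092, beside -0.105 to 0.157. With 3 libraries per group, these values cannot settle whether libraries were paired. Slpi rested on 11 to 65 reads per FO B library.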

Other observations

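The 14 macrophage and monocyte genes summed to 12 to 30.6 FPKM in FO B cells and 203 to 243 FPKM in ABCs, of which Adgre1 gave 174, 222 and 199 FPKM. Cd68, at means of 4.17 and 10.7 FPKM in aged FO B cells and ABCs, and Ms4a7, at 0.606 and 2.99 FPKM, were higher too, while Csf1r was at 0.301 to 0.831 FPKM in ABCs. The 7 plasma cell genes summed to 440 to 471 FPKM in FO B cells and 976 to 1275 FPKM in ABCs, mostly from Mzb1 at 1050, 1015 and 769 FPKM in ABCs. In ABC replicate 3, the library with the highest Slpi, Sdc1 (29.5 FPKM), Xbp1 (142 FPKM) and Irf4 (20.7 FPKM) were at their highest in ABCs and Jchain (12.5 FPKM), Mzb1 and Prdm1 (2.93 FPKM) at their lowest. The 7 NK cell genes summed to 26.3 to 38.2 FPKM in ABCs, nearly all from Prf1, with Klre1 at 0 throughout, and the 10 T cell genes to 5.20 to 39.4 FPKM, mostly from Cd3g. The 3 B-1 cell genes Cd5, Bhlhe41 and Zbtb32 summed to 2.35 to 4.54 FPKM in FO B cells and 134 to 157 FPKM in ABCs. Zbtb32 gave most of this, at 123, 105 and 122 FPKM in ABCs, and Cd5 was at 0.656, 2.43 and 2.86 FPKM there. The 8 B lineage genes summed to 8694 to 9138 FPKM in FO B cells and 7688 to 9897 FPKM in ABCs. Of these, limma called Cd22 and Blk higher in ABCs than in aged FO B cells, beside 19.4% of all genes. Pax5 and Ebf1 were called lower, beside 16.5%. The 9 dendritic cell genes summed to 220 to 309 FPKM in all libraries, mostly from Ccr7. The part of these markers in the inhibitor values was not tested.

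Without a filter on low values, limma called 7 of 68 other inhibitors higher and 2 lower in ABCs than in aged FO B cells. Of all 18877 genes in that fit, 2044 were called higher and 1444 lower. Neither share of the inhibitors exceeded that of all genes. Further serpins were among the inhibitors called. Serpinb1b, Serpinb1c, Serpinb9b and Serpinc1 were called higher in ABCs, from 36, 53, 39 and 78 reads over 3 libraries, against 2, 0, 1 and 13 reads in aged FO B cells. Serpinb7 was called lower.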
